A study of Mus musculus with 16 samples.

Results

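The genes described are 8 of the 18193 genes with a probe set on the array: Hmgcs1, Idi1, Fdps, Fdft1, Sqle, Lss, Cyp51 and Insig1. They were chosen by name, as enzymes of cholesterol and isoprenoid synthesis and a regulator of that pathway. Every probe set that the platform annotation gives to 1 of these symbols alone was taken, 21 of 45101 in all. Probe sets annotated with several symbols were not used. The study measured mRNA in mouse bone with Affymetrix arrays, 1 array per mouse, in 4 groups of 4 female C57BL/6 mice. All 16 mice had been ovariectomized, which removes the main source of estrogen. WT-OVX were wild type mice given vehicle, WT-E2-4hr wild type mice given estrogen, ERaKO-OVX mice with an osteoclast-specific knockout of estrogen receptor alpha given vehicle, and ERaKO-E2-4hr knockout mice given estrogen. The distal 5 mm of the left femur was taken 4 hours after treatment, and RNA was not pooled. Not given in the sources used here were the estrogen compound and its dose, the age of the mice and the Cre driver behind the knockout. Because the whole distal femur was used, cells other than osteoclasts keep the receptor gene.

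Cells build cholesterol and isoprenoids from acetyl-CoA through the mevalonate pathway, whose intermediate farnesyl diphosphate feeds both sterols and the lipid anchors of small GTPases. Transcription of most of the enzymes is driven by SREBP-2, which is released from the endoplasmic reticulum when sterols are low; Insig1 is an endoplasmic reticulum protein that retains SREBP when sterols are high and is itself an SREBP target. In bone the pathway is known because nitrogen-containing bisphosphonates block farnesyl diphosphate synthase, the product of Fdps, in osteoclasts.

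Promoter sequences show which letters these genes carry near their starts. RefSeq sequences (GRCm38.p6, 250 bases before to 50 bases after the start) were matched for 5 of the 8 genes: Hmgcs1, Idi1, Lss, Cyp51 and Insig1. Shown are Hmgcs1, which holds a match to a sterol regulatory element string, and Insig1 and Cyp51, whose estrogen differences in wild type were the lowest of the 8. Capitals mark TCACNCCAC, the 9-letter sterol regulatory element, and the CCAAT box, on either strand (ATTGG is CCAAT on the other strand), and no CCAAT match overlapped a TCACNCCAC match.
Hmgcs1, chr13:119690101-119690400, plus strand: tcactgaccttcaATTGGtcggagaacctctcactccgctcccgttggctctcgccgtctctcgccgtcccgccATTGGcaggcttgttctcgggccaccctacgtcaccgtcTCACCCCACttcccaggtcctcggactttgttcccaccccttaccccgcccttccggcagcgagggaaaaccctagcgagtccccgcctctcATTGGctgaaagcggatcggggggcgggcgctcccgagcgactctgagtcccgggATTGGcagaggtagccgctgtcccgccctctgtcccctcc
Insig1, chr5:28071162-28071461, plus strand: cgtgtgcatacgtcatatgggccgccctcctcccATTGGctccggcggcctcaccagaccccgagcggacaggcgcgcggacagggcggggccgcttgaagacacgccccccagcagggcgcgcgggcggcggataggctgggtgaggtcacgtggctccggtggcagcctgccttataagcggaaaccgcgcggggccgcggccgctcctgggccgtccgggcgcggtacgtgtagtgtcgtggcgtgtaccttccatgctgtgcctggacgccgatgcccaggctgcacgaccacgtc
Cyp51, chr5:4104648-4104947, minus strand: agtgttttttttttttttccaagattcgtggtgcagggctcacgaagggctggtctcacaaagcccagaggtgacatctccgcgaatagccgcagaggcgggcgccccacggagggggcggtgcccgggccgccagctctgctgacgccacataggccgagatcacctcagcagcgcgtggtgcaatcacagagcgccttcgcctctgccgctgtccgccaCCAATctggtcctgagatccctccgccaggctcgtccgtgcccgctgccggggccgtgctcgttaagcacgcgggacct

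In all, 7 motifs were searched on both strands as fixed strings, with N for any letter. Sites that differ from these strings were not looked for, so a missing match does not show that an element is absent. TCACNCCAC occurred once, in Hmgcs1, as TCACCCCAC beginning 137 bases before the start, and in 1.24% of all 32851 promoters. The looser TCACNNCAC matched the same letters in Hmgcs1 and no other of the 5 promoters, against 3.77% of all promoters. CCAAT was found in each of the 5 (4 matches in Hmgcs1, 2 in Idi1 and 1 each in Lss, Cyp51 and Insig1) and in 37.4% of all promoters. The GC box GGGCGG was also present in each of the 5 and in 35.7% of all promoters, and the E-box CACGTG occurred once, in Insig1, against 7.15% of all promoters. Neither the 10-letter sterol regulatory element (0.0913% of all promoters) nor the palindromic estrogen response element (0.07%) was found in these 5 windows.

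Signals were linear probe set intensities, scaled so that the mean after trimming 2% from each end was 500 on every array. The bone markers Col1a1 (26331 to 37644) and Ctsk (3295 to 13852) were high on all 16 arrays. Skeletal muscle Acta1 ranged from 636 to 71278. Esr1 encodes the targeted receptor, and whether its probe sets lie in the deleted part was not tested. The strongest of them read 792 to 1100 in WT-OVX, 434 to 664 in WT-E2-4hr, 580 to 723 in ERaKO-OVX and 409 to 753 in ERaKO-E2-4hr. Replicates numbered 1 and 2 differed from replicates 3 and 4 over much of the array, and 3 arrays (WT-OVX 2, WT-E2-4hr 2 and ERaKO-E2-4hr 1) had spike-in medians of 9690 to 17673 against 2101 to 4475 on the other 13. In such bulk samples, fewer cells of a type and less RNA per cell cannot be told apart.

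Of the 21 probe sets, 14 lay above the signal level of 109 that 70% of genes exceeded, and each of the 8 genes had at least 1 of them. The remaining 7 had mean signals between 18.6 and 106 and were not tested. The tested probe set with the highest mean log2 signal stands for its gene. Every difference given is one of log2(signal + 16), beside the standard error (SE) from limma, and p-values were adjusted by Benjamini-Hochberg over 12735 genes.

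The first question was whether estrogen altered these genes in wild type bone at 4 hours. Insig1 and Cyp51 read lower on all 4 arrays after estrogen than on all 4 vehicle arrays, and neither difference passed the adjusted threshold of 0.05. Insig1 (1454671_at) read 709, 807, 1091 and 799 in WT-OVX and 580, 526, 383 and 609 in WT-E2-4hr. Its groups did not overlap, and the means were 852 ± 166 and 524 ± 101 (SD, n = 4). The log2 difference was -0.69 ± 0.19 (SE), with an unadjusted limma p of 0.00217 and an adjusted limma p of 0.26, which ran from 0.119 to 0.594 over 31 alternatives. Cyp51 (1450646_at), the demethylase that removes the first methyl group from lanosterol, read 351, 314, 448 and 405 under vehicle and 306, 280, 280 and 259 after estrogen. Here too the groups did not overlap, and the log2 difference was -0.40 ± 0.23 (limma, adjusted p = 0.655, from 0.31 to 0.894 over the alternatives). Non-overlap in this direction was found for 2.29% of all genes. At the second tested Cyp51 probe set, 1422533_at, the groups overlapped (153 to 311 under vehicle and 128 to 214 after estrogen). For Insig1 and for Cyp51 1450646_at the exact two-sided permutation p over 70 arrangements was 0.0286, the smallest this design allows. Within replicate sets it was 0.0556 for each, again the smallest of 36 arrangements. These and the other permutation p-values are among 96 computed for the 8 genes, 2 for each of 48 differences, and are not adjusted.

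**Figure D1:**
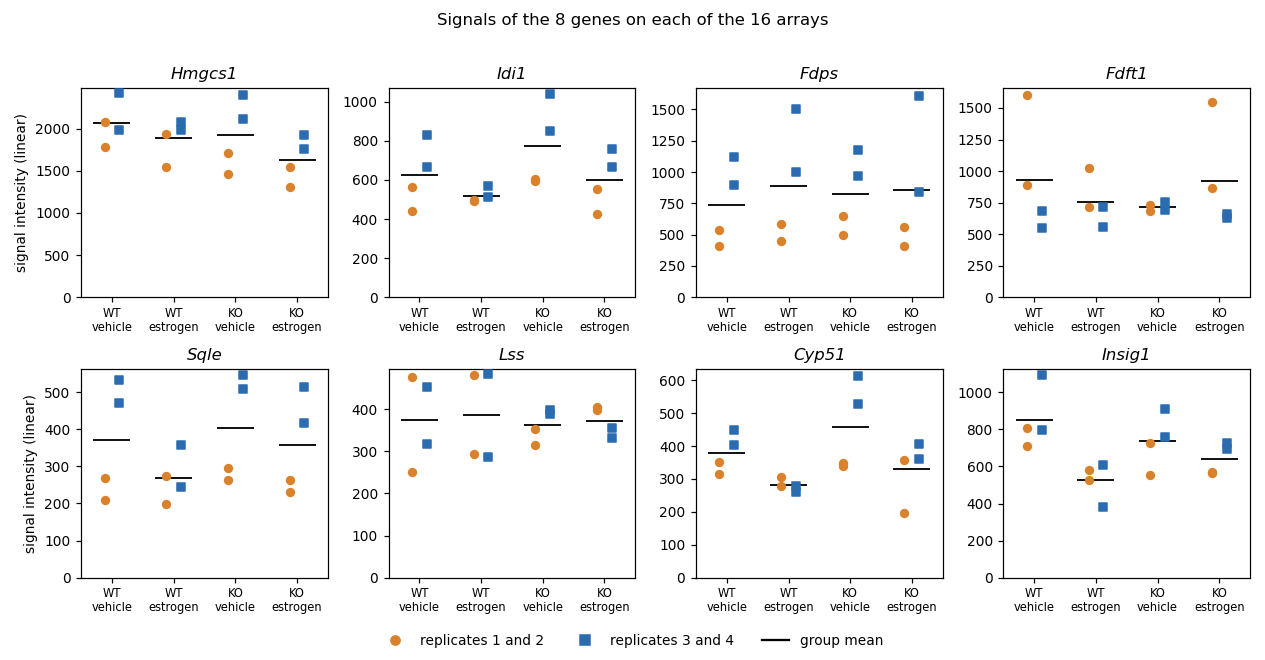
Signal intensity (linear) of the 8 genes on each of the 16 arrays, by group (WT and KO with vehicle or estrogen), with circles for replicates 1 and 2, squares for replicates 3 and 4 and bars at the group means. The Insig1 and Cyp51 signals of the estrogen-treated wild type mice lie below all vehicle-treated wild type values, and the Fdps squares lie above the circles in every group.

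At the probe set that stands for each gene, the other 6 genes overlapped between the wild type groups. Hmgcs1 (1433443_a_at), the synthase that makes HMG-CoA, read 1783, 2085, 2423 and 1989 under vehicle and 1545, 1934, 2079 and 1981 after estrogen, with a difference of -0.13 ± 0.17. Idi1 (1451122_at), which isomerizes isopentenyl diphosphate, read 563, 441, 829 and 669 against 500, 490, 568 and 511, a difference of -0.23 ± 0.22. Sqle (1415993_at), squalene epoxidase, read 270, 208, 534 and 470 against 273, 200, 358 and 244. The highest Sqle values in both groups came from replicate 3, and the difference was -0.37 ± 0.33.

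Fdps (1423418_at) read 536, 406, 1116 and 892 under vehicle and 588, 447, 1507 and 1002 after estrogen, a difference of 0.21 ± 0.44. Fdft1 (1448130_at), squalene synthase, read 893, 1603, 680 and 552 against 717, 1022, 713 and 558, with -0.22 ± 0.31. Lss (1420013_s_at), which closes the sterol rings to form lanosterol, read 251, 477, 453 and 318 against 293, 482, 286 and 484, with 0.04 ± 0.22. At the probe set that stands for each, both Fdps and Fdft1 varied more between replicates than between treatments. By limma, 0 of the 8 genes passed the adjusted threshold, as did 0 of all 12735 genes (0%), and 1 of the 8, Insig1, had an unadjusted p under 0.05, as did 1107 genes (8.69%). Differences were below 0 for 6 of the 8 genes, with a median of -0.225, beside 52.1% and a median of -0.014 over all genes tested. Marker lists of other cells stood off 0 in the same comparison, although 0 of their genes passed. B lymphocyte markers were below 0 in 8 of 8 (median -0.725, summed signal 11293 to 15113 in WT-OVX and 3180 to 16925 in WT-E2-4hr), and cartilage markers in 9 of 9 (median -0.602, 16679 to 65386 and 16514 to 27273). Neutrophil markers were above 0 in 8 of 10 (median 0.27, 211252 to 598643 and 255440 to 645685), 4 of them with an unadjusted limma p under 0.05, and those lists overlapped between the groups in summed signal. Adipocyte markers were below 0 in 5 of 5 tested (median -0.80, with sums over 8 markers of 22771 to 76929 and 15040 to 37992), and muscle markers in 13 of 14 (median -0.97, 18845 to 560139 and 10214 to 230799). No marker of these 5 lists was at 0, and their part in the differences of the 8 genes was not tested.

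In the knockout, vehicle and estrogen groups overlapped for all 8 genes, where 1.5% of all genes were separated upwards and 2.88% downwards. Insig1 read 725, 555, 911 and 757 in ERaKO-OVX and 566, 569, 724 and 694 in ERaKO-E2-4hr, a difference of -0.19 ± 0.19 (limma, adjusted p = 0.981). Cyp51 read 339, 347, 527 and 614 against 196, 358, 406 and 362, a difference of -0.45 ± 0.23 (limma, adjusted p = 0.981). Its groups overlapped, and 3 of 4 replicate numbers read lower after estrogen. Idi1 read 602, 593, 852 and 1038 against 425, 552, 666 and 758, lower for 4 of 4 replicate numbers, with -0.35 ± 0.22.

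Hmgcs1 read 1710, 1463, 2399 and 2116 in ERaKO-OVX and 1307, 1544, 1760 and 1921 after estrogen, with -0.22 ± 0.17. Sqle read 263, 296, 546 and 508 against 230, 265, 417 and 515, with -0.17 ± 0.33. Fdps read 494, 650, 1174 and 966 against 406, 561, 837 and 1608, with -0.06 ± 0.44. The highest Fdps signal of the series was thus a single estrogen-treated knockout mouse. Fdft1 read 728, 686, 690 and 751 against 1547, 863, 627 and 661, with 0.27 ± 0.31, where the array at 1547 is one of the 3 with high spike-in signal. Lss read 353, 315, 389 and 398 against 406, 397, 333 and 355, with 0.03 ± 0.22. By limma 0 of the 8 passed, as did 0 of all genes (0%), and 0 of the 8 had an unadjusted p under 0.05, against 624 genes (4.9%) in all. Differences were below 0 for 6 of the 8, median -0.18, beside 48.6% and a median of 0.008 for all genes. In this comparison B lymphocyte and cartilage markers had medians of -0.615 and -0.642, and muscle markers 1.07, with 7 of 8, 8 of 9 and 0 of 14 below 0, and their part was not tested.

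**Figure D2:**
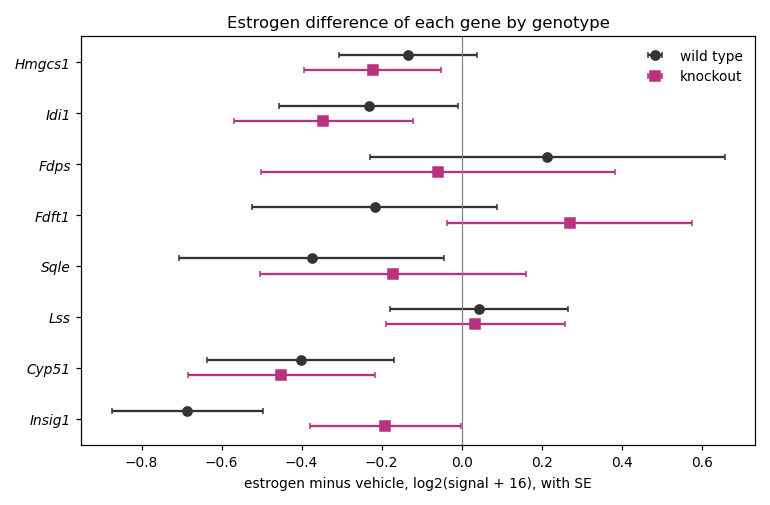
Estrogen minus vehicle for each gene, on the log2(signal + 16) scale with the SE of the limma fit, in wild type (circles) and knockout (squares). Insig1 stands at -0.69 for wild type mice and -0.19 for knockouts, while Cyp51 stands at -0.40 and -0.45.

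Whether the response depended on genotype was tested as the difference between the estrogen differences, knockout minus wild type. For Insig1 it was 0.50 ± 0.27 (limma, unadjusted p = 0.0815, adjusted p = 0.68), and for Fdft1 0.49 ± 0.43. For Cyp51 it was -0.05 ± 0.33, and the other 5 genes lay between -0.27 and 0.20. Shuffling treatment labels within each genotype gave a permutation p of 0.176 for Insig1 over 4900 arrangements. These arrangements assume no estrogen effect in either genotype, so that p does not test whether the responses are equal. Of the 8 genes 0 passed, as of all genes (0%), with 0 of the 8 and 970 genes (7.62%) under an unadjusted limma p of 0.05. Insig1 is therefore not shown to respond differently between the genotypes.

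Averaged over both genotypes, estrogen differences were -0.44 ± 0.13 for Insig1 (limma, adjusted p = 0.512) and -0.43 ± 0.17 for Cyp51 (limma, adjusted p = 0.679). The second Cyp51 probe set, 1422533_at, gave -0.47 ± 0.20. Idi1 stood at -0.29 ± 0.16, Sqle at -0.27 ± 0.23 and Hmgcs1 at -0.18 ± 0.12, while Fdps (0.08 ± 0.31), Lss (0.04 ± 0.16) and Fdft1 (0.03 ± 0.22) lay near 0. Other tested Hmgcs1 probe sets gave -0.14, -0.10 and -0.09. Exact permutation p-values, with rearrangement within replicate sets second, were 0.00653 and 0.00463 for Insig1. For Cyp51 the exact permutation gave 0.0135 and 0.00772, for Idi1 0.0898 and 0.0123, for Hmgcs1 0.144 and 0.0293, and for Sqle 0.278 and 0.0478. It gave 0.822 and 0.639 for Fdps, 0.913 and 0.881 for Fdft1, and 0.75 and 0.764 for Lss. Permutations were run for the 8 genes only, so how many of all genes reach such p-values is not known. Of all genes 2 passed the adjusted limma threshold (0.0157%), neither of them among the 8. An unadjusted limma p under 0.05 was found for 2 of the 8 and for 783 genes (6.15%). The average uses the same arrays as both single-genotype comparisons and is not separate evidence.

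Within replicate sets the Insig1 difference in wild type was -0.44 ± 0.23 for replicates 1 and 2 and -0.93 ± 0.26 for replicates 3 and 4, beside -0.16 ± 0.23 and -0.22 ± 0.26 for knockout mice. Cyp51 stood at -0.17 ± 0.33 and -0.63 ± 0.21 in wild type. The knockout values of Cyp51 were -0.35 ± 0.33 and -0.55 ± 0.21. At the probe set that stands for each gene, all 4 within-set differences were below 0 for Insig1, Cyp51, Idi1, Hmgcs1 and Sqle. The share of all genes with this pattern was not computed. For Idi1 in wild type they were -0.01 ± 0.25 and -0.455 ± 0.20, and for Sqle -0.02 ± 0.32 and -0.73 ± 0.24. Other Hmgcs1 probe sets rose in wild type replicates 1 and 2. There 1433445_x_at read 1360 and 1107 under vehicle and 1600 and 1330 after estrogen, and 1433446_at 452 and 348 against 571 and 364. Fdft1 and Lss turned sign between the sets in both genotypes, and Fdps in the knockout. Each set has 2 arrays a group, and whether the sets differ in their response was not tested.

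**Figure D3:**
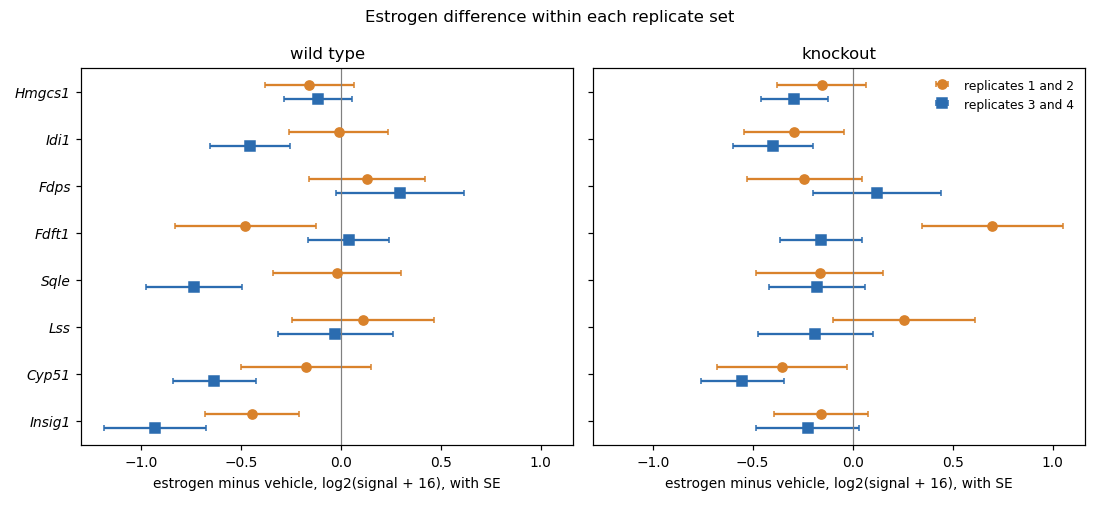
Estrogen minus vehicle on the log2(signal + 16) scale with SE, computed within replicates 1 and 2 (circles) and within replicates 3 and 4 (squares), in wild type (left) and knockout (right). Insig1 in wild type reads -0.44 and -0.93, and Fdft1 in the knockout reads 0.70 and -0.16.

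Genotypes were then compared without a treatment difference. Under vehicle, knockout minus wild type was 0.29 ± 0.22 for Idi1, 0.22 ± 0.23 for Cyp51, 0.18 ± 0.44 for Fdps and 0.14 ± 0.33 for Sqle. It was -0.26 ± 0.31 for Fdft1, -0.21 ± 0.19 for Insig1, -0.12 ± 0.17 for Hmgcs1 and -0.0024 ± 0.22 for Lss. By limma 0 of the 8 passed, and 0 of all genes (0%), with 0 of the 8 and 459 genes (3.6%) under an unadjusted p of 0.05. After estrogen the differences were 0.35 ± 0.33 for Sqle, 0.29 ± 0.19 for Insig1, 0.23 ± 0.31 for Fdft1, 0.18 ± 0.22 for Idi1 and 0.18 ± 0.23 for Cyp51. Hmgcs1 stood at -0.21 ± 0.17, Fdps at -0.09 ± 0.44 and Lss at -0.01 ± 0.22. Again 0 of the 8 and 0 of all genes (0%) passed in limma, with 0 of the 8 and 859 genes (6.75%) under an unadjusted p of 0.05. By mean signal Insig1 ran from WT-OVX (852 ± 166) through ERaKO-OVX (737 ± 146) and ERaKO-E2-4hr (638 ± 82.5) to WT-E2-4hr (524 ± 101), and each neighbour overlapped the next. Cyp51 ran from ERaKO-OVX (457 ± 136) through WT-OVX (380 ± 59.0) and ERaKO-E2-4hr (330 ± 92.1) to WT-E2-4hr (281 ± 19.3), also with overlap between neighbours.

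With estrogen, the tested probe sets of 1 gene mostly moved together, and those below the filter level were not compared. The 2 Cyp51 probe sets gave -0.40 and -0.46 with estrogen in wild type mice, then -0.45 and -0.48 in knockouts, and the 2 of Idi1 -0.23 and -0.17, then -0.35 and -0.25. The 2 tested for Fdft1 gave -0.22 and -0.12 in wild type, then 0.27 and 0.10 in the knockout. The 4 Hmgcs1 probe sets lay between -0.13 and 0.07 in wild type, where their signs differed, and between -0.30 and -0.22 in the knockout. In the fit over 26677 probe sets, 0 of the 14 passed in any of the 6 group comparisons, where 0 to 0.00375% of all probe sets did.

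Between replicates 3 and 4 and replicates 1 and 2, with group as a term, Fdps, Sqle, Idi1 and Hmgcs1 were higher in replicates 3 and 4 and Fdft1 was lower, 5 of the 8 genes beside 17.9% of all genes by the adjusted limma threshold (8.93% higher and 9.01% lower). In replicates 1 and 2 Fdps ranged from 406 to 650 with a median of 515, against 837 to 1608 with a median of 1059 for replicates 3 and 4. The sets did not overlap, as for 1.33% of all genes in this direction, and the log2 difference was 1.11 ± 0.15 (limma, adjusted p = 9e-05). Sqle ranged from 200 to 296 (median 264) and from 244 to 546 (median 489), a difference of 0.77 ± 0.14 (limma, adjusted p = 0.0013). Idi1 ranged from 425 to 602 (median 526) and from 511 to 1038 (median 713), with 0.46 ± 0.11 (limma, adjusted p = 0.00908). The other tested Idi1 probe set, 1423804_a_at, gave 0.23 ± 0.13 and did not pass (limma, adjusted p = 0.226 over probe sets).

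Hmgcs1 ranged from 1307 to 2085 (median 1628) and from 1760 to 2423 (median 2034), with 0.32 ± 0.09 (limma, adjusted p = 0.025). Its 3 other tested probe sets gave 0.51 to 0.68. Without WT-OVX replicate 3, ERaKO-OVX replicate 2 or ERaKO-OVX replicate 3 the Hmgcs1 difference no longer passed (0.31, 0.29 and 0.29). Without WT-OVX replicate 3, 3 of the 8 genes passed. Cyp51 (0.36 ± 0.14), Insig1 (0.20 ± 0.12) and Lss (0.03 ± 0.16) did not pass, and Cyp51 passed with array quality weights.

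For replicates 1 and 2 Fdft1 ranged from 686 to 1603 (median 878), against 552 to 751 (median 670) for the other pair, with -0.55 ± 0.17 (limma, adjusted p = 0.0333). Its second tested probe set, 1438322_x_at, gave -0.28 ± 0.14 and did not pass (limma, adjusted p = 0.162 over probe sets). Its 3 highest signals, 1603, 1547 and 1022, were those of the 3 arrays with high spike-in signal. Without these 3 arrays the difference was -0.24 (limma, adjusted p = 0.201), and with the mean of all its probe sets, 2 below the filter level included, it was 0.21. It also did not pass without WT-OVX replicate 2, 3 or 4, WT-E2-4hr replicate 2 or 4, or ERaKO-E2-4hr replicate 1, 3 or 4 (-0.54 to -0.43), nor with array quality weights (-0.37).

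**Figure D4:**
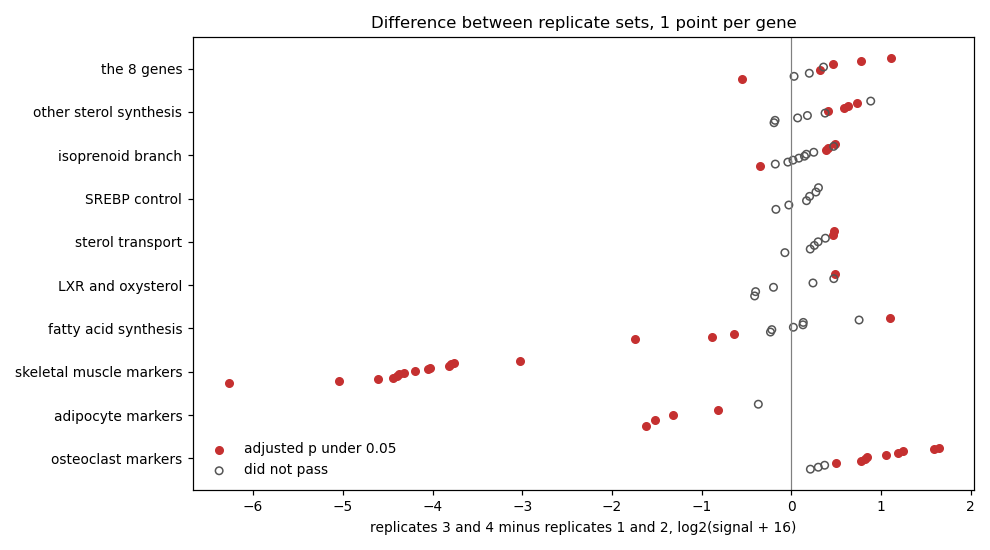
Difference between replicates 3 and 4 and replicates 1 and 2, on the log2(signal + 16) scale, 1 point per gene, for the 8 genes, 6 related lists and 3 lists of tissue markers, with filled points for an adjusted p under 0.05. Of the 8 genes 4 lie to the right and 1 to the left among the filled points, and all 14 muscle markers lie to the left.

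Tissue markers and technical readings moved with the sets. Marker counts here are of genes that passed the adjusted limma threshold, as 17.9% of all genes did. By sign alone, 12 of 12 osteoclast, 7 of 8 osteoblast and osteocyte and 8 of 9 cartilage markers were higher in replicates 3 and 4. Also by sign, 5 of 5 adipocyte, 7 of 10 neutrophil, 6 of 6 erythroid and 7 of 8 B lymphocyte markers were lower. All 14 skeletal muscle markers were lower in replicates 3 and 4 (median -4.255), and their summed signal, 93690 to 747448 in the first pair of replicates, was 4287 to 39337 in the second. Of 5 adipocyte markers tested 4 were lower (median -1.32), with sums over 8 markers of 25682 to 91688 and 13114 to 24372. Of 12 osteoclast markers 9 were higher (median 0.83), with sums of 26053 to 47322 and 49901 to 74384. Among the other lists, 5 of 10 neutrophil markers were lower (median -0.35), 4 of 8 osteoblast and osteocyte markers higher (median 0.42), and 1 of 9 cartilage markers higher (median 0.67). Of 6 erythroid markers 2 were lower (median -0.44), and of 8 B lymphocyte markers 1 (median -0.44). Of 6 monocyte and macrophage markers 1 was higher and 1 lower (median 0.18), as were 1 and 1 of 9 cell cycle markers (median -0.009). No marker of the muscle, adipocyte and osteoclast lists was at 0. The signal of 18S rRNA ran from 10839 to 32638 in the first pair and from 473 to 7271 in the second. The 3' to 5' ratio of Actb ran from 1.24 to 3.53 and from 1.17 to 1.25. Its highest values, 3.53 (WT-OVX 2), 2.44 (WT-E2-4hr 2) and 2.07 (ERaKO-E2-4hr 1), were those of the 3 arrays with high spike-in signal. The other arrays of replicates 1 and 2 read 1.24 to 1.5. The part of these markers and readings in the differences of the 8 genes was not tested.

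Other genes of sterol and lipid metabolism were read from 6 fixed lists. In the 6 group comparisons 0 genes of these lists passed the adjusted limma threshold. Of 10 other sterol synthesis enzymes tested, 7 were above 0 with estrogen in wild type (median 0.16), led by Lbr, a sterol reductase that is also a nuclear envelope protein, at 0.51 ± 0.18, and Pmvk, phosphomevalonate kinase, at 0.43 ± 0.18. In the knockout 8 of the 10 were below 0 (median -0.10), with Lbr at -0.25 and Mvd at -0.50. The Lbr difference between responses was -0.76 ± 0.25 and that of Pmvk -0.50 ± 0.26 (limma, adjusted p = 0.631 and 0.667). Knockout minus wild type gave Tm7sf2 -0.42 and Pmvk 0.33 under vehicle, and Lbr -0.46 and Mvd -0.94 after estrogen. Averaged over genotypes Pmvk stood at 0.18 and Msmo1, a sterol demethylating oxidase, at -0.28.

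Among 12 isoprenoid and prenylation genes the largest estrogen differences by p were Rabggta (0.46) and Nus1 (0.35) in wild type and Coq2 (0.35) and Nus1 (0.35) in the knockout. Averaged over genotypes they were Nus1 (0.35) and Rabggta (0.18), and the difference between responses was -0.54 for Rabggta and 0.38 for Fnta. Under vehicle the genotype difference was -0.24 for Fnta and 0.27 for Rabggtb, and after estrogen -0.32 for Rabggta and 0.33 for Rabggtb. Of 6 SREBP control genes, Srebf2 (0.20) and Mbtps1 (-0.16) led in wild type mice, and Insig2 (0.41), the paralogue of Insig1, and Srebf1 (0.27) in the knockout. Srebf2 (0.37) and Srebf1 (-0.17) led under vehicle, Mbtps1 (0.27) and Insig2 (0.30) after estrogen, Mbtps1 (0.32) and Srebf1 (0.26) for the difference between responses, and Insig2 (0.25) and Srebf1 (0.14) on average.

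Of 7 uptake and transport genes, Scarb1, the HDL receptor, stood at 0.50 and Lipa at -0.17 with estrogen in wild type, and Stard4 (-0.30) and Mylip (-0.35) led in the knockout. Scarb1 (0.35) and Npc2 (-0.25) led under vehicle, Lipa (-0.31) and Scarb1 (-0.16) after estrogen, Scarb1 (-0.51) and Npc2 (0.25) between responses, and Stard4 (-0.22) and Scarb1 (0.25) on average. Of 6 LXR and oxysterol genes, Abcg1 (-0.29) and Apoe (0.24) led in wild type, Abca1 (0.30) and Ch25h (0.22) in the knockout, and Abcg1 (-0.21) and Apoe (0.19) on average. Cyp27a1 (-0.52) and Apoe (-0.17) led under vehicle, Abca1 (0.36) and Apoe (-0.29) after estrogen, and Abca1 (0.46) and Cyp27a1 (0.38) between responses. All of these missed the adjusted threshold in limma.

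Of the 6 lists, fatty acid synthesis held the smallest unadjusted p for estrogen in wild type, for genotype under vehicle and for the difference between responses. With estrogen in wild type 9 of 10 were below 0 (median -0.325), with Fasn, fatty acid synthase, at -0.85 ± 0.28 (limma, adjusted p = 0.366) and Scd1, a stearoyl-CoA desaturase, at -1.40 ± 0.69. In the knockout Fasn stood at 0.52 ± 0.28 and Scd1 at 0.67 ± 0.69, and the difference between responses was 1.37 ± 0.40 for Fasn and 2.07 ± 0.98 for Scd1 (limma, adjusted p = 0.631 and 0.653). Fasn means were 1171 ± 677 in WT-OVX, 583 ± 126 in WT-E2-4hr, 548 ± 52.0 in ERaKO-OVX and 794 ± 131 in ERaKO-E2-4hr (SD, n = 4). Under vehicle, knockout minus wild type was -0.92 for Fasn and -1.56 for Scd1, a comparison that shares the WT-OVX arrays with the wild type estrogen comparison; the Scd1 value passed with a replicate set term and array quality weights (limma, -1.34, adjusted p = 0.0332). After estrogen the leading values were 0.45 for Fasn and 0.60 for Me1, and on average -0.22 for Elovl6 and -0.11 for Fads1. Adipocyte markers moved in the same comparisons, with medians of -0.80 for estrogen in wild type mice, 0.38 for estrogen in knockouts and -1.02 between genotypes under vehicle, and their part was not tested.

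Between replicate sets, genes of these lists are called higher or lower by the adjusted limma threshold, which 17.9% of all genes passed. Of the 10 other sterol enzymes, 4 were called higher in replicates 3 and 4 and 0 lower: Sc5d (0.74 ± 0.15), Msmo1 (0.63 ± 0.14), Hsd17b7 (0.58 ± 0.14) and Ebp (0.41 ± 0.13). By sign alone 8 of these 10 were above 0 and 2 below. Of the 12 isoprenoid genes Nus1 (0.49), Pggt1b (0.41) and Icmt (0.39) were higher and Fnta (-0.35) lower, and 0 of the 6 SREBP control genes passed in limma, 2 of them, Insig2 (0.30) and Srebf2 (0.27), with an unadjusted p under 0.05, beside 32.6% of all genes. Scarb1 (0.47) and Mylip (0.46) were higher, as was Apoe (0.48), while Nr1h3 (0.47) missed the threshold. Of the 10 fatty acid genes Scd2 was higher (1.10 ± 0.12) and Scd1 (-1.74 ± 0.22), Acss2 (-0.88 ± 0.18) and Me1 (-0.64 ± 0.21) were lower. Scd1 and Scd2, both stearoyl-CoA desaturases, thus lay on opposite sides. Several of these calls were lost when 1 array was left out. Ebp did not pass without WT-OVX replicate 2, 3 or 4, WT-E2-4hr replicate 2 or 3, or any ERaKO-E2-4hr replicate (0.35 to 0.41). Mylip did not pass without any one WT-OVX replicate, WT-E2-4hr replicate 2, 3 or 4, or ERaKO-E2-4hr replicate 1, 3 or 4 (0.35 to 0.49), nor with no filter on low signal (0.46) or array quality weights (0.28). Me1 did not pass without any one WT-OVX or ERaKO-E2-4hr replicate, or ERaKO-OVX replicate 2 or 4 (-0.67 to -0.46), nor with no filter (-0.64). Apoe did not pass without WT-OVX replicate 2 or 3, WT-E2-4hr replicate 2 or ERaKO-E2-4hr replicate 3 (0.41 to 0.47). Without the 3 arrays of high spike-ins together, Ebp (0.29), Nus1 (0.45), Pggt1b (0.30), Icmt (0.36), Fnta (-0.21), Scarb1 (0.34), Mylip (0.19), Apoe (0.40) and Me1 (-0.46) did not pass. With the mean of probe sets Sc5d (0.25), Hsd17b7 (0.35) and Scarb1 (0.23) did not pass, while Insig2 (0.41) and Srebf2 (0.42) did. Nr1h3 passed with array quality weights (0.55), without the 3 arrays (0.69) and without WT-OVX replicate 2 (0.57). Insig2 passed with array quality weights (0.28) and without ERaKO-E2-4hr replicate 1 (0.36) or 4 (0.37). The part of muscle, fat and osteoclast RNA in these differences was not tested.

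Across the 16 arrays the 8 genes were correlated unevenly. Idi1 followed Sqle (Pearson r = 0.906) and Cyp51 (r = 0.905), and Fdps followed Sqle (r = 0.807). Fdps and Fdft1 ran opposite (r = -0.701). Of the 28 pairs 18 were above 0, with a median of 0.376. After group and replicate set means were removed, Idi1 and Cyp51 kept r = 0.814 and Idi1 and Sqle r = 0.736, with a median over pairs of 0.188. These are descriptions over 16 arrays that share replicate sets and array quality.

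Outside the 8, the genes most like their mean profile over the 16 arrays were Msmo1 (r = 0.855), Slc36a2, Lman1, Tnc, Runx1, Smad6, Pard6g, Sdhaf2, Eif2ak2 and Scd2 (r = 0.80). After group and replicate set means were removed they were Rab3a (r = 0.806), Nrtn, Rbm45, Slc35d2, Tmem268, Ocln, Nphs1os, Dhdh, Lman1 and Mfsd6 (r = 0.709). Lman1 was named by both measures.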

How the data were processed

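Probe set signals were the authors' deposited intensity values, linear and made with GCOS per the submitters' processing notes; not given in the sources used here are its version and settings. On the 16 arrays (4 mice a group) they were tested with limma 3.58.1 (R 4.3.3) on log2(signal + 16), with 1 mean per group, trended eBayes and 12 residual degrees of freedom. The probe set with the highest mean log2 signal stood for each gene, and the lowest 30% of genes were left out, leaving 12735; choosing both by arithmetic mean, which was run first, was kept as an alternative. The replicate set comparison added a term for set. Of 45101 probe sets, 34958 had 1 gene symbol and 932 several, which were not named. The number of arrays limits precision, and limma p-values weigh a difference against the spread between mice of the same group. In the fit with group means only, that spread includes the difference between replicate sets. For arrays of different groups, deviations from group means had a median correlation of -0.342 across sets, beside 0.354 for other numbers of the same set.

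Same-numbered arrays of different groups correlated in their deviations from group means (24 pairs, 0.178 to 0.593), but so did other numbers of the same set (median 0.354); the numbers come from the sample titles, and the block is given as an alternative. All 8 genes were named by role. From each list, genes past the threshold and the 2 of smallest p per comparison were named. The 8 genes and the lists, including 10 marker lists, were chosen with earlier results of these data known. Alternatives were the pseudocount, quantile normalization, filter, probe set choice, replicate block, set term, single sets, array weights and left-out arrays.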

Additional observations from a re-analysis of the deposited data

How the results depend on the processing

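Of the 15 alternatives other than leaving out 1 array, 3 were chosen after seeing the data: the set term with array weights, the set term without the 3 arrays whose spike-ins were high, and probe set choice and filter by arithmetic mean. The 8 genes gave 0 passing in each of the 6 group comparisons under every alternative run, and 3 to 5 between replicate sets. The replicate block changed no call. Its Insig1 difference in wild type was -0.69 (limma, adjusted p = 0.173). The count of all genes passing, 0 for estrogen in wild type, became 5 with a replicate set term, 5 with array quality weights and 7 with both. For estrogen in the knockout, 0 became 1 with quantile normalization, the 50% filter, the mean of probe sets, the set term or array weights, 2 without the 3 arrays, 3 with the set term as well, and 15 with the set term and weights. Under vehicle 0 became 1 with weights and 3 with weights and the set term, and the difference between responses gave 4 within replicates 1 and 2. The average's 2 became 8 with the set term, 0 within replicates 1 and 2, 6 with weights, 12 with the set term without the 3 arrays, and 42 with the set term and weights. Between replicate sets, 2285 became 1250 without the 3 arrays. Leaving out 1 array gave 0 to 2 genes for estrogen in wild type, 0 to 3 in the knockout, 1 to 3 on average and 1512 to 2495 between sets. Quantile normalization moved the median of all genes by less than 0.1. 

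For estrogen in wild type, the log2 difference turned sign within replicates 3 and 4 for Fdft1 (0.041), Lss (-0.026), Srebf2 (-0.12) and Lipa (0.26), and with array quality weights for Fdps (-0.33), Fdft1 (0.20), Lss (-0.045) and Srebf2 (-0.12). For estrogen in the knockout, the log2 difference turned sign with the mean of probe sets for Fdps (0.087), and within replicates 3 and 4 for Fdps (0.12), Fdft1 (-0.16), Lss (-0.19), Lbr (0.093) and Mylip (0.018). It also did so with array quality weights for Fdps (0.13) and Lss (-0.028), and without those 3 arrays for Fdps (0.23), Fdft1 (-0.007), Sqle (0.005), Lss (-0.006) and Mvd (0.16). It turned too with a set term and without those 3 arrays for Fdps (0.066), Lss (-0.045) and Mvd (0.028), and with a set term and array weights for Lss (-0.07). Between genotypes under vehicle, the log2 difference turned sign with quantile normalization for Lss (0.011), and with the mean of probe sets for Fdps (-0.069) and Npc2 (0.041). It also did so within replicates 3 and 4 for Hmgcs1 (0.037), Fdft1 (0.23), Lss (0.05), Rabggtb (-0.014), Srebf1 (0.14) and Npc2 (0.015), and with array quality weights for Fdps (-0.15), Fdft1 (0.14), Sqle (-0.19) and Lss (0.042). It turned too without those 3 arrays for Fdps (-0.061), Fdft1 (0.037), Sqle (-0.086) and Lss (0.12), and with a set term and without those 3 arrays for Lss (0.16). A last change came with a set term and array weights for Lss (0.11). Between genotypes after estrogen, the log2 difference turned sign with the mean of probe sets for Lss (0.28) and Cyp51 (-0.02), and within replicates 1 and 2 for Idi1 (-0.03), Lss (0.089) and Cyp51 (-0.13). It also did so within replicates 3 and 4 for Abca1 (-0.046) and Me1 (-0.23), and with array quality weights for Fdps (0.32), Fdft1 (-0.03), Lss (0.059) and Scarb1 (0.069). It turned too without those 3 arrays for Lss (0.065), and with a set term and without those 3 arrays for Lss (0.065). For the difference between responses, the log2 difference turned sign with the mean of probe sets for Lss (0.40), and within replicates 1 and 2 for Hmgcs1 (0.003), Sqle (-0.15) and Lss (0.14). It also did so within replicates 3 and 4 for Idi1 (0.058), Fdft1 (-0.20), Cyp51 (0.081), Srebf1 (-0.053) and Cyp27a1 (-0.23), and with array quality weights for Hmgcs1 (0.11), Idi1 (0.20), Fdps (0.46), Fdft1 (-0.17), Lss (0.017), Cyp51 (0.18) and Cyp27a1 (-0.21). It turned too without those 3 arrays for Hmgcs1 (0.022), Idi1 (0.16), Cyp51 (0.25) and Cyp27a1 (-0.28), and with a set term and without those 3 arrays for Idi1 (0.097), Cyp51 (0.21) and Cyp27a1 (-0.26). For the average over genotypes, the log2 difference turned sign with the mean of probe sets for Fdft1 (-0.24) and Abcg1 (0.03), and within replicates 1 and 2 for Fdps (-0.054). It also did so within replicates 3 and 4 for Fdft1 (-0.058), Lss (-0.11) and Rabggta (-0.005), and with array quality weights for Fdps (-0.099) and Lss (-0.036). It turned too without those 3 arrays for Fdft1 (-0.042), and with a set term and without those 3 arrays for Fdft1 (-0.022). Between replicate sets, the log2 difference turned sign with quantile normalization for Lss (-0.005), and with the mean of probe sets for Fdft1 (0.21). Leaving out each array in turn also changed signs, given here as the lowest and highest value. Signs changed for estrogen in wild type, of Fdps (-0.088 to 0.48), Fdft1 (-0.42 to 0.079), Lss (-0.12 to 0.17) and Apoe (-0.063 to 0.46). For estrogen in the knockout they changed for Fdps (-0.42 to 0.23), Fdft1 (-0.007 to 0.42), Sqle (-0.37 to 0.005), Lss (-0.03 to 0.085) and Mvd (-0.78 to 0.16). Signs changed between genotypes under vehicle, of Fdps (-0.061 to 0.41), Fdft1 (-0.47 to 0.037), Sqle (-0.086 to 0.35) and Lss (-0.17 to 0.12). Between genotypes after estrogen they changed for Fdps (-0.46 to 0.21), Fdft1 (-0.05 to 0.38), Lss (-0.14 to 0.11), Scarb1 (-0.28 to 0.031) and Apoe (-0.51 to 0.02). Signs changed for the difference between responses, of Hmgcs1 (-0.21 to 0.027), Idi1 (-0.26 to 0.04), Fdps (-0.64 to 0.029), Lss (-0.14 to 0.16), Cyp51 (-0.17 to 0.17) and Cyp27a1 (-0.091 to 0.64). For the average over genotypes they changed for Fdps (-0.10 to 0.22), Fdft1 (-0.11 to 0.17) and Lss (-0.045 to 0.10). Signs changed between replicate sets, of Lss (-0.058 to 0.10).

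The sign changes listed concern differences that had not passed, except Fdft1 between sets, and their cause was not tested. Signals near the level of the filter carry the least signal over background, and 4 mice a group in 2 unlike replicate sets limit what these arrays can resolve.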
